A study of Homo sapiens with 6 samples.

Results

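The pregnancy-specific glycoproteins (PSGs) are a family of secreted glycoproteins of the carcinoembryonic antigen group, encoded by near-identical genes that lie side by side on chromosome 19. Here the family is the 10 genes PSG1, PSG2, PSG3, PSG4, PSG5, PSG6, PSG7, PSG8, PSG9 and PSG11, and its members on the array are all probes whose platform annotation gives 1 gene symbol, that of a PSG gene. These 10 genes, of 19432 with a probe, were measured by 14 of the 29377 probes, 3 each for PSG4 and PSG6 and 1 each for the other 8 genes. SNU638, a human gastric cancer cell line, was the only cell line on the arrays. Illumina bead chips were hybridized with RNA from 3 mock samples, made with an empty control vector, and from 3 samples stably transfected with a LAP2beta plasmid, 1 array per sample. LAP2beta, a splice form of TMPO, is an inner nuclear membrane protein, and its cDNA was driven by a CMV promoter beside a neomycin resistance plasmid. Mock cells were made at the same time, and transfected cells were selected in G418. The study names a clone once, in a sentence on SNU638 and another cell line, and whether the arrayed line was a clone is not clear from it. Neither the labels nor the methods say whether the 3 samples of a line were separate cultures. The p-values given here therefore cover the spread among these 6 samples alone, and that spread may be technical.

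In human pregnancy PSGs are made in large amounts by the syncytiotrophoblast, the outer layer of the placenta, and are among the most abundant fetal proteins in maternal blood. They are built from immunoglobulin-like domains, as the related CEACAM adhesion molecules are, but are released from the cell. PSG1 and PSG9 have been reported to bind the latency-associated peptide of TGF-beta1, and PSG1 to bind integrins and heparan sulfate chains. Because the paralogs resemble each other closely, a probe of 1 gene may also bind RNA of another. Each probe is therefore given separately, and differences between probes are not read as differences between genes.

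The study lists PSG1 among the genes changed by LAP2beta, and the family was taken up for that reason and with earlier results of these data known. The difference between the LAP2beta line and mock cells is therefore a description here, and the calls counted in it support nothing. Differences between the replicate numbers 1, 2 and 3 over both lines, which the choice of the family did not use, were tested.

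The median signal of the 29377 probes was between 189.5 and 199.9 on the 6 arrays, and the share of probes above background, with a detection p-value under 0.01, ran from 44.1% to 46.6%. Signals were quantile normalized between arrays and log2 transformed, and the 13323 probes above background on at least 3 of the 6 arrays are called kept probes. All 8 epithelial marker genes on the list used here, EPCAM and CDH1 among them, had a kept probe. Of 10 measured markers of fibroblasts, immune cells, endothelium and red cells, 0 had one. In bulk RNA such as this, fewer cells of a type and less RNA per cell cannot be told apart. The kept probe of TMPO, which is annotated to a transcript other than the beta form, had log2 signals of 9.61 to 10.02 in mock cells and 9.62 to 9.86 in the LAP2beta line, a log2 difference of -0.032 (SE 0.11). The probe annotated to the beta transcript was above background on 0 arrays, as was a further probe annotated to the transcript of the kept probe. The overexpression was therefore not visible on these arrays, and the libraries labelled LAP2beta are called so by their label. By real-time PCR the study reports a raised LAP2beta mRNA level in transfected SNU638 cells, and it also shows western blots. Whether the plasmid insert holds the target of any of these TMPO probes is not known here.

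Promoter sequences were at hand for 3 of the 10 genes, PSG3, PSG4 and PSG5. They are shown because these near-identical promoters belong to genes whose probes differed in detection. The windows run from 250 bases before to 50 bases after the start of each gene, on the minus strand of GRCh38.p14, and are credited to RefSeq. Capitals mark matches to the GC box CCGCCC, a site for SP1-type factors, or to the CACCC box, a site for KLF-type factors.
PSG4, chr19:43205589-43205888: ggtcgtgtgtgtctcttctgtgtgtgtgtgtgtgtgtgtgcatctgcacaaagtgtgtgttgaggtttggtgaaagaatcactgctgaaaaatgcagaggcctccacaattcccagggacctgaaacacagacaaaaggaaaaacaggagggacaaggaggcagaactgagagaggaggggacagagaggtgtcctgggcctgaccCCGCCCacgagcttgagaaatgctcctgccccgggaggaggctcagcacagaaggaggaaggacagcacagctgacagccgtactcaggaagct
PSG5, chr19:43186487-43186786: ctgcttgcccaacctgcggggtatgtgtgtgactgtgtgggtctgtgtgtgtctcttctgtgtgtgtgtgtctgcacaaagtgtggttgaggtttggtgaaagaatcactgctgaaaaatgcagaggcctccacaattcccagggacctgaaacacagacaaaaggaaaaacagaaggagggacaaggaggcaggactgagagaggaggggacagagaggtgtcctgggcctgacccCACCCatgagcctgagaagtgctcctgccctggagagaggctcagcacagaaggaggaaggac
PSG3, chr19:42740432-42740731: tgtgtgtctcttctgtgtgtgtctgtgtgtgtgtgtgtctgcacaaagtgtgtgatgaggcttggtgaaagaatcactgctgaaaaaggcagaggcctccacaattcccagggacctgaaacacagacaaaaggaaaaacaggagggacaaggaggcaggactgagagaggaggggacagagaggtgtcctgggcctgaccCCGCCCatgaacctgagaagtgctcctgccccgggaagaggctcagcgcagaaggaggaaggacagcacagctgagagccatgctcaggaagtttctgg
Over 257 aligned bases, with 17 internal gap bases left out, the PSG4 and PSG5 windows were 96.5% identical. PSG3 was 94.2% identical to PSG4 over 295 aligned bases without an internal gap. It was 95.5% identical to PSG5 over 264, with 12 internal gap bases left out. The GC box, searched on both strands, matched once in the PSG3 window and once in the PSG4 window and not in that of PSG5, and 45.0% of 35116 promoter windows of this length hold it. The CACCC box, also searched on both strands, matched once in the PSG5 window only, and 59.9% of all windows hold it. TATAAA was found in none of the 3 windows and in 11.5% of all windows. PSG4 was above background on all 6 arrays with each of its 3 probes, while the probe of PSG5 was so on 3 arrays and that of PSG3 on 1. As a probe may also bind RNA of a paralog, this does not show that the genes differ in expression.

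PSG4 was measured by 3 probes. With ILMN_2384745 the log2 signal of PSG4 was 13.10, 11.79 and 11.60 in mock replicates 1, 2 and 3 and 12.41, 11.07 and 10.88 in LAP2beta replicates 1, 2 and 3. With ILMN_2281810 it was 12.31, 11.08 and 10.95 in mock cells and 12, 10.59 and 10.24 in the LAP2beta line, in the same order of replicates. With ILMN_1693397 it was 9.74, 8.75 and 8.47 in mock cells and 9.29, 8.39 and 8.22 in the LAP2beta line. On each PSG4 probe, the array numbered 1 was the highest of its group, each LAP2beta array lay below the mock array of the same number, and the groups overlapped, since LAP2beta replicate 1 lay above mock replicates 2 and 3.

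PSG9, one of the PSGs reported to bind latent TGF-beta1, had log2 signals of 11.59, 10.29 and 9.90 in mock replicates 1, 2 and 3 and of 11.27, 9.41 and 9.63 in LAP2beta replicates 1, 2 and 3. PSG1, the gene listed by the study, had 10.34, 9.45 and 8.92 in mock cells and 9.61, 8.52 and 8.22 in the LAP2beta line. As with PSG4, the groups overlapped through the high value of LAP2beta replicate 1, and every same-numbered difference was below 0.

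PSG6 has been reported, with PSG1 and PSG11, to induce cytokine secretion by human monocytes. Of its 3 probes, ILMN_2309615 gave log2 signals of 11.28, 10.28 and 9.98 in mock replicates 1, 2 and 3 and of 10.67, 9.77 and 9.53 in LAP2beta replicates 1, 2 and 3. With ILMN_1718514 these were 9.88, 8.91 and 8.64 in mock cells and 9.66, 8.61 and 8.54 in the LAP2beta line. The remaining PSG6 probe, ILMN_1763018, was above background only on mock replicate 1, where its log2 signal was 7.84, against 7.0 to 7.43 on the other arrays.

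The probe of PSG5 was above background on mock replicates 1 and 2 and on LAP2beta replicate 1. Its log2 signals were 8.15, 7.76 and 7.28 in mock replicates 1, 2 and 3 and 8.37, 7.56 and 7.76 in LAP2beta replicates 1, 2 and 3. Unlike the other kept probes, it was higher in the LAP2beta line on the arrays numbered 1 and 3 and lower on those numbered 2.

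The probes of PSG3 and PSG7 were above background on 1 array each, which was mock replicate 1 for both. On that array the log2 signal of PSG3 was 7.84 and that of PSG7 was 7.88. The probes of PSG2, PSG8 and PSG11 were above background on none of the 6 arrays, with log2 signals of 7.24 to 7.41, 6.81 to 7.19 and 6.78 to 7.15. On PSG8 the 3 LAP2beta signals lay below the 3 mock signals, but all lay within background, so no fold is given. In all, 8 of the 14 PSG probes, of 5 of the 10 genes, were kept, and mock replicate 1 had 11 of the 14 above background against 7 or 8 on each of the other arrays.

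**Figure D1:**
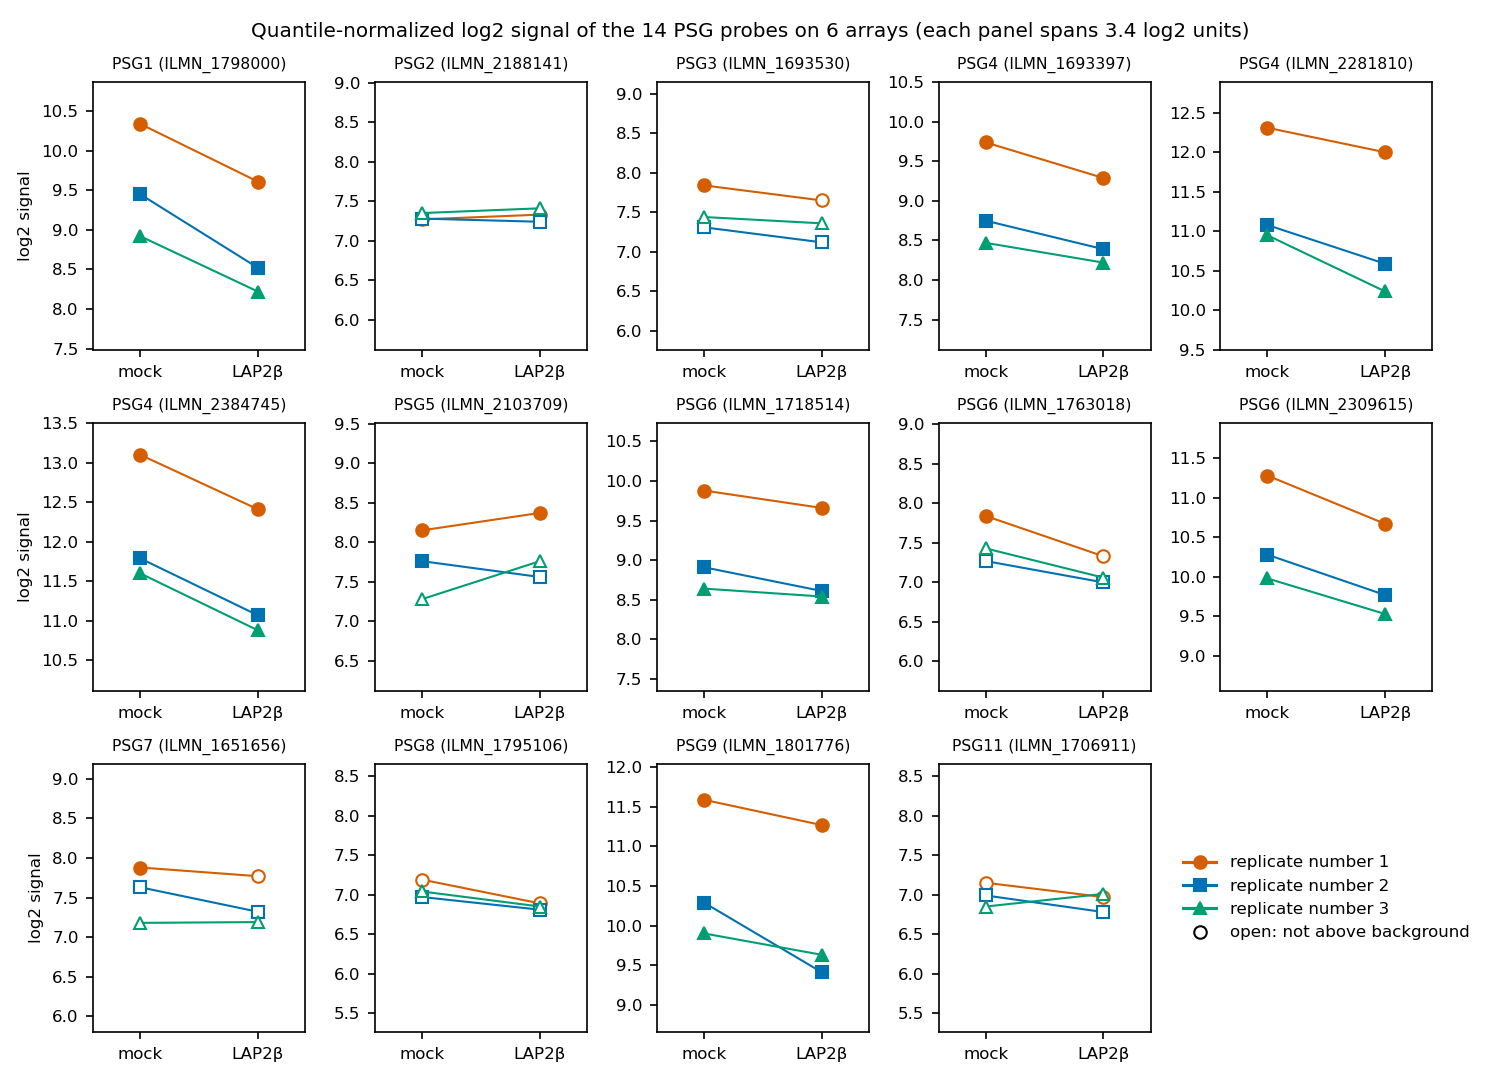
Log2 signal (y axis, quantile normalized) of each of the 14 PSG probes in mock and LAP2beta cells (x axis), with 1 point per array, lines joining arrays of the same replicate number and open points for signals not above background. On the 8 kept probes the arrays numbered 1 lie above the other arrays of their group, and on 7 of these 8 all lines fall from mock to LAP2beta.

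Compared to mock cells, the kept PSG probes lay lower in the LAP2beta line with 1 exception. For some, the sign of the mean difference changed with 1 array left out. Without mock replicate 1 the difference was 0.03 for PSG4 with ILMN_1693397, 0.17 for PSG6 with ILMN_1718514 and 0.01 for PSG9, and the median over the 8 probes was -0.03. That setting keeps LAP2beta replicate 1, the highest of its group, without its same-numbered mock array. For numbers 2 and 3 the same-numbered differences were -0.36 and -0.25 for PSG4 with ILMN_1693397. They were -0.29 and -0.09 for PSG6 with ILMN_1718514 and -0.88 and -0.27 for PSG9. With all arrays, PSG1 had the largest mean difference of the kept PSG probes, -0.79 on the log2 scale (LAP2beta minus mock, SE 0.37), a 1.72-fold lower signal. The mean of PSG1 in mock cells was 9.57 ± 0.72 (SD, n = 3), against 8.79 ± 0.73 (SD, n = 3) in the LAP2beta line, so that the difference was about as large as the spread within a group. For the 3 probes of PSG4 the difference was -0.71 (SE 0.42), -0.50 (SE 0.43) and -0.35 (SE 0.32). For PSG6 it was -0.53 (SE 0.33) with ILMN_2309615 and -0.20 (SE 0.33) with ILMN_1718514, and for PSG9 it was -0.49 (SE 0.48). Only PSG5 had a positive difference, 0.17 (SE 0.23). For PSG5, PSG9 and PSG6 with ILMN_1718514 the difference was no larger than about its standard error. For PSG4 with ILMN_1693397 and ILMN_2281810 the difference was little larger than its standard error. These standard errors are from a fit without the replicate number. With the number in the fit they were 0.08 for ILMN_1693397 and ILMN_1718514, 0.09 for ILMN_2281810 and 0.11 for PSG5 and PSG9.

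The median difference of the 8 kept PSG probes was -0.50, and that of all 13323 kept probes was -0.01. By limma without regard to the numbers, 0 of the 8 kept PSG probes passed an adjusted p under 0.05, where 0.555% of all kept probes were called lower and 1.1% higher. At an unadjusted p under 0.05 the count was also 0, and 6.97% of all kept probes were lower at that level. With the replicate number as a block in the fit, 6 of the 8 were called lower and 0 higher, where 2.77% of all kept probes were called lower and 3.39% higher. The 6 were PSG1, PSG9, all 3 PSG4 probes and PSG6 with ILMN_2309615. PSG1, and with it the family, was chosen on this contrast, so these counts are no evidence of a difference and nothing is read from them. The standard error of PSG1 was 0.37 without the block and 0.08 with it.

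The same-numbered differences show where the standard errors parted. For PSG1 they were -0.73, -0.93 and -0.70 for numbers 1, 2 and 3, and for PSG4 with ILMN_2384745 they were -0.69, -0.72 and -0.72. They were less even for PSG9, at -0.32, -0.88 and -0.27. All 3 same-numbered differences were below 0 on 7 of the 8 kept PSG probes, where 22.4% of all kept probes had this. Nothing is read from that count either, as the family was chosen on this contrast and its probes may share RNA. The groups overlapped on all 8, and all LAP2beta arrays lay below all mock arrays on 10.2% of the kept probes.

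**Figure D2:**
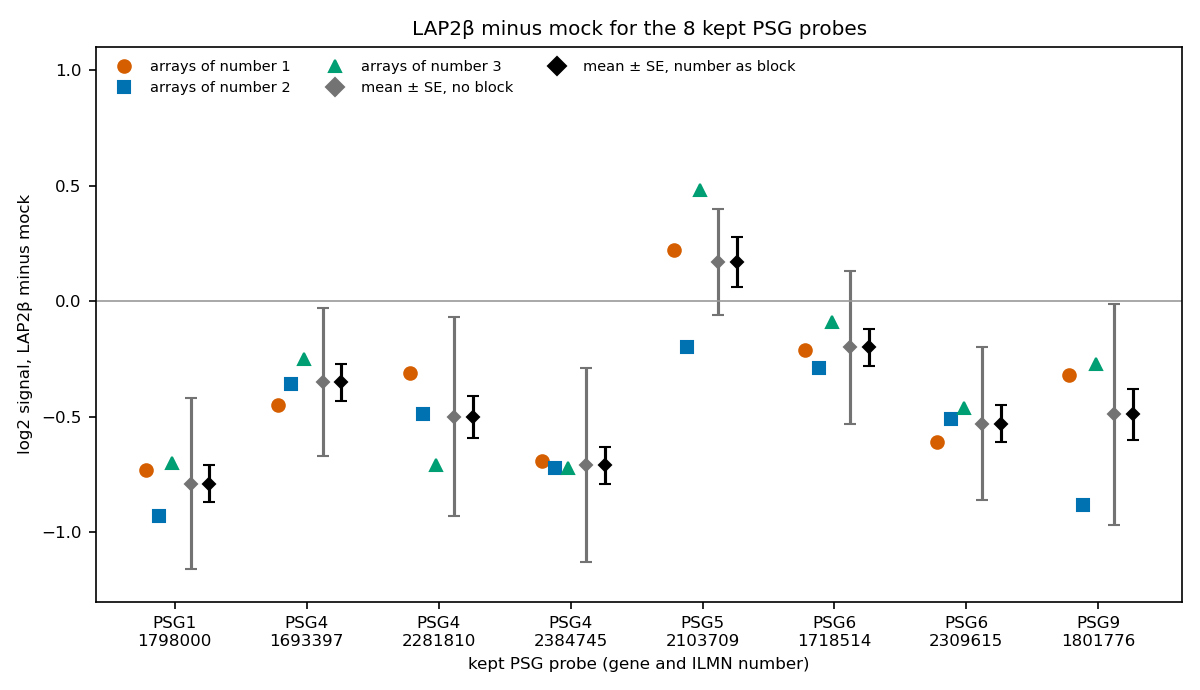
Log2 difference, LAP2beta minus mock (y axis), for the 8 kept PSG probes (x axis), with the 3 same-numbered differences as coloured points and the mean with its SE without the block (grey) and with the replicate number as a block (black). The means run from -0.79 for PSG1 to 0.17 for PSG5, and the SE of PSG1 shrinks from 0.37 to 0.08 with the block.

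On each kept PSG probe the means of the replicate numbers ranged more widely than the means of the lines differed. The range spans 3 means and the difference 2, which favours the range. The mean over both lines of PSG4 with ILMN_2384745 was 12.76 for number 1, 11.43 for number 2 and 11.24 for number 3, a range of 1.52 on the log2 scale, or 2.86-fold. The range was 3.16-fold for PSG9, 2.65-fold for PSG1, 2.33-fold and 2.27-fold for the kept probes of PSG6 and 1.67-fold for PSG5. On all 8 kept PSG probes number 1 was the highest, as it was on 36.5% of all kept probes. The median range over the 8 kept PSG probes was 1.32 on the log2 scale, against 0.17 over all kept probes.

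An F test of the replicate number, fitted with limma beside the line for all kept probes, was passed by all 8 kept PSG probes at an adjusted p under 0.05, where 2.93% of all kept probes passed it. The 8 probes are of 5 closely similar paralogs and may share RNA, so they cannot be taken as 8 separate results. The adjusted p was 1.83e-05 for PSG4 with ILMN_2384745, 4.54e-05 for PSG1, 5.66e-05 for PSG9 and 0.0208 for PSG5. By the p-value of this test, the kept probes of PSG1, PSG4, PSG6 and PSG9 ranked between 2 and 14 among the 13323 kept probes, and that of PSG5 ranked 222. PSG5 was kept through arrays on which it was high, while the other 7 probes were above background on all 6 arrays. Over all 29377 probes with no filter, PSG7 was called too (adjusted p = 0.0308), while PSG3 had an adjusted p of 0.0635. After neqc, a background correction that stretches low signals, none of the 8 passed, nor did any of the 13323 kept probes, and the adjusted p was then 0.0542 to 0.0697 for 7 of the 8 and 0.202 for PSG5. The F value changed little for PSG1 (99.9 before and 94.5 after neqc) and for PSG4 with ILMN_2384745 (148 and 132), and more for PSG9 (94.2 and 54.05).

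The replicate number accounted for a median of 83.4% of the total sum of squares of a kept PSG probe, the line for 11.1% and the remainder for 0.587%. Over all kept probes these medians were 43.8%, 19.4% and 20.6%. The lowest share of the number was 69.0%, for PSG1, and the highest was 95.9%, for PSG6 with ILMN_1718514. What same-numbered samples share is not given in the sources used here. Of the 8 epithelial genes, CDH1 (adjusted p = 0.0387) and ELF3 (0.00248) also passed the test of the number, where 2.97% of all genes with a kept probe passed it. Highest at number 1 were 4 of the 8, CDH1 and ELF3 among them, while KRT8, KRT18, KRT19 and CLDN4 were highest at number 3. The median log2 signal of the 8 epithelial genes lay between 11.45 and 12 in mock cells and between 11.19 and 11.73 in the LAP2beta line. Their part in the PSG values was not tested. The arrays numbered 1 did not stand apart in median signal (192.5 and 189.5) or in the share of probes above background (45.7% and 44.6%).

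**Figure D3:**
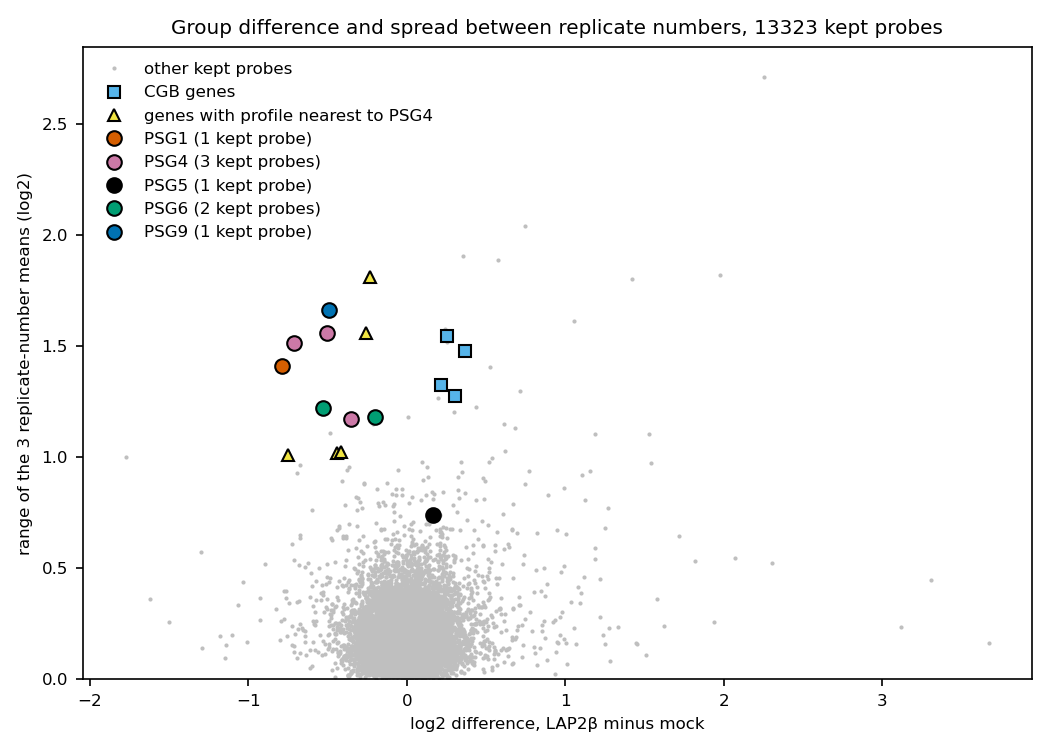
Each kept probe is 1 point, with its log2 difference, LAP2beta minus mock, on the x axis and the range of its 3 replicate-number means, in log2 units, on the y axis. The PSG probes lie between 0.74 and 1.66 on the y axis, far above the median of 0.17 over all kept probes.

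Of the 391 kept probes that passed the test of the replicate number, 276 were highest at number 1, 45 at number 2 and 70 at number 3. Apart from PSG genes, the 5 genes whose centred log2 profile over the 6 arrays lay nearest to that of PSG4 with ILMN_2384745 were FOXJ1, ZFP36, FOS, SPOCD1 and IFI44L. Their root mean square difference from that profile was 0.29 to 0.36 on the log2 scale, against a median of 0.77 over 9900 genes. FOXJ1, a transcription factor of ciliated cells, had log2 signals of 11.25, 9.70 and 9.17 in mock replicates 1, 2 and 3 and of 10.79, 9.36 and 9.26 in LAP2beta replicates 1, 2 and 3. ZFP36, which destabilizes AU-rich mRNAs, and FOS, a subunit of AP-1, are immediate early genes, and IFI44L is an interferon-stimulated gene. The number means of these 5 genes ranged over 1.01 to 1.81 on the log2 scale and were highest at number 1, which restates the choice by profile and was not read as a test.

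Among the kept PSG probes themselves, the second PSG4 probe ILMN_2281810 lay at 0.13 from this profile, PSG1 at 0.15, PSG6 with ILMN_2309615 at 0.19, PSG9 at 0.20 and PSG4 with ILMN_1693397 at 0.25. No gene outside the family lay nearer than these. PSG6 with ILMN_1718514 lay at 0.30, with 2 other genes nearer, and PSG5 at 0.58, with 170 other genes nearer. The likeness is a description over 6 arrays, and probes of paralogs may share RNA.

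The placenta also makes chorionic gonadotropin, the hormone that maintains the corpus luteum in early pregnancy. Of 5 measured genes of its beta subunit, 4 had a kept probe, and these genes were picked out after their values were seen. CGB5 had log2 signals of 13.29, 14.40 and 14.83 in mock replicates 1, 2 and 3 and of 13.74, 14.57 and 14.85 in LAP2beta replicates 1, 2 and 3. On CGB5 the arrays numbered 1 were thus the lowest of their group, the reverse of the PSG genes. CGB1, CGB3 and CGB7 also had their lowest signals on the arrays numbered 1. The range of the number means was 2.42-fold to 2.92-fold over CGB1, CGB3, CGB5 and CGB7, and each passed the test of the replicate number (adjusted p of 1.32e-04 to 5.95e-04 from limma). After neqc their adjusted p was 0.0789 to 0.110. The CGB genes, too, are near-identical copies, so their probes cannot be taken as separate genes. CGA, the gene of the alpha subunit, was within background on all 6 arrays.

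**Figure D4:**
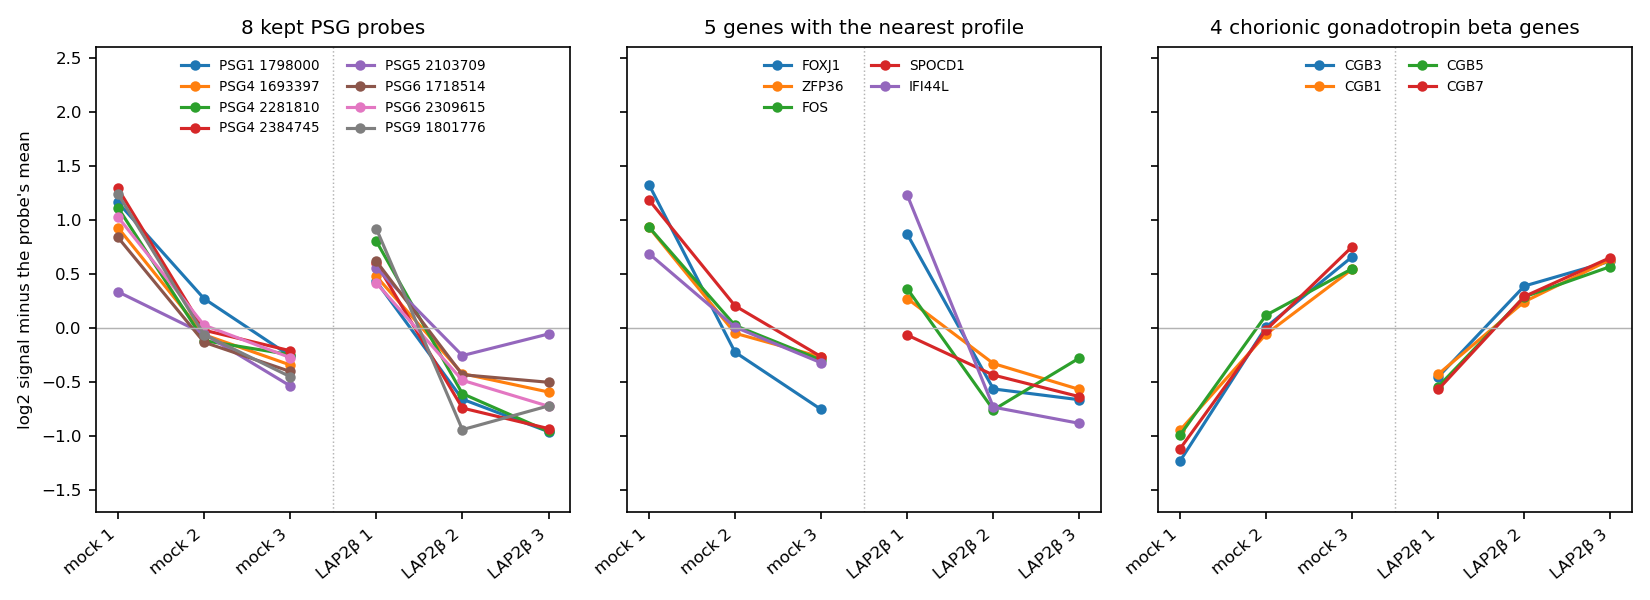
Log2 signal minus the probe's own mean (y axis) on each of the 6 arrays (x axis) for the 8 kept PSG probes, the 5 genes with the nearest profile and 4 chorionic gonadotropin beta genes. Lines only join the values of a probe within a line of cells. The arrays numbered 1 are the highest of their group for the PSG probes and the lowest for the CGB genes.

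A list of 52 genes of trophoblast and placenta set the PSGs beside other genes of the tissue in which they are normally made. Of these, 50 were measured and 17 had a kept probe. GCM1, ERVW-1, CYP19A1 and the placental lactogen genes CSH1 and CSH2 were above background on none of the arrays. Of the 17 genes, 3 rose, 1 fell and 13 did not pass the test, where 1.17% of all 9905 genes with a kept probe rose and 0.616% fell. With the replicate number as a block 5 rose and 1 fell, where 3.55% of all these genes rose and 2.88% fell, and the genes added were TFAP2A (log2 difference 0.37, adjusted p = 0.0155) and KRT7 (0.35, adjusted p = 0.0438), which had an adjusted p of 0.167 and 0.303 without the block. ALPP, the placental alkaline phosphatase, rose 4.21-fold (log2 difference 2.07, SE 0.21, adjusted p = 4.85e-04 from limma). PLAC8 rose at least 1.18-fold (adjusted p = 0.00595). It was above background on the 3 LAP2beta arrays and no mock array, so it was kept only through the group where it was high, and its call adds nothing to the count. VGLL1, a cofactor of TEAD factors, rose 1.45-fold (adjusted p = 0.0134). PHLDA2, an imprinted regulator of placental growth, fell by 0.64 on the log2 scale (SE 0.11, adjusted p = 0.0127). ALPP and PHLDA2 are listed by the study from these samples, so their part in this count is not independent evidence. PHLDA2 did not pass without mock replicate 2 (adjusted p = 0.0755) or LAP2beta replicate 2 (0.0812), and VGLL1 did not pass without mock replicate 2 (0.0971), LAP2beta replicate 1 (0.0540) or LAP2beta replicate 2 (0.0754).

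The median log2 difference of the 17 trophoblast genes was 0.254, against -0.007 over all genes with a kept probe. Of the 17, 4 were the near-identical CGB genes, with differences of 0.21 to 0.37, and PLAC8 was kept only through the LAP2beta arrays. The median is thus not that of 17 separate genes. The summed signal of the list ran from 49278 to 91594 in mock cells and from 67862 to 99035 in the LAP2beta line, so the groups overlapped. Bright genes weigh most in this sum, and CGB1 and CGB5 reached log2 signals of 14.49 and 14.85. The replicate number was called for the CGB genes above and for no other gene of the list, where 2.97% of all genes with a kept probe were called. As the CGB genes are near-identical copies picked after their values were seen, nothing is read from their number.

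The proteins to which PSGs have been reported to bind, or which carry the sugar chains they bind, made a list of 16 measured genes, of which 10 had a kept probe. By limma 0 of these 10 were called, and an unadjusted p under 0.05 was found for 2, where 13.8% of all genes with a kept probe had one. GPC1, a heparan sulfate proteoglycan, had a log2 difference of 0.29 (SE 0.09, adjusted p = 0.159), and ITGA5, the alpha chain of the fibronectin receptor, one of -0.28 (SE 0.10, adjusted p = 0.222). Of the latent TGF-beta complex, TGFB1, TGFB2 and LTBP1 were above background on none of the arrays, while TGFB3 was so on all 6 and had a log2 difference of 0.20 (SE 0.11). CD9, the receptor reported for a PSG of the mouse, had a log2 difference of 0.07 (SE 0.12). The replicate number was called for 1 of the 10, ITGAV, an integrin alpha chain (adjusted p = 0.0260).

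Of 8 transcription factors reported to act at PSG promoters, all 8 had a kept probe and 0 passed the limma test, with 1 at an unadjusted p under 0.05, near the 13.8% of all genes with a kept probe. KLF4 had a log2 difference of 0.36 (SE 0.11, adjusted p = 0.178) and KLF6 one of -0.17 (SE 0.11, adjusted p = 0.556). KLF6 and KLF4 belong to the factors that bind CACCC-type sequences, and SP1, which binds GC boxes, had a difference of 0.09 (SE 0.10). The replicate number was called for 0 of these 8 genes, and the range of their number means was between 0.07 and 0.26 on the log2 scale.

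The chromosomal neighbours were the 40 other genes between the outermost PSG genes or among the 15 nearest on either side, of which 14 were measured and 7 had a kept probe. None of the 10 that lie between PSG genes, several CEACAM pseudogenes among them, was among the 14. CEACAM1, a cell adhesion molecule beside the cluster, rose 1.97-fold (log2 difference 0.98, SE 0.15, adjusted p = 0.00634 from limma). That probe was not above background on 1 mock array, and CEACAM1 is listed by the study as well. On a further kept probe, above background on 0 mock arrays and kept only through the LAP2beta arrays, CEACAM1 was at least 1.37-fold higher. Without mock replicate 2 the adjusted p of CEACAM1 was 0.0502. The other 6 neighbours, among them LIPE, LYPD3, ETHE1 and XRCC1, did not pass the test and had log2 differences of -0.10 to 0.15. The replicate number was called for CEACAM1 alone (adjusted p = 0.0489), with number 1 the highest, and its number means ranged over 0.48 on the log2 scale, below those of every kept PSG probe.

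**Figure D5:**
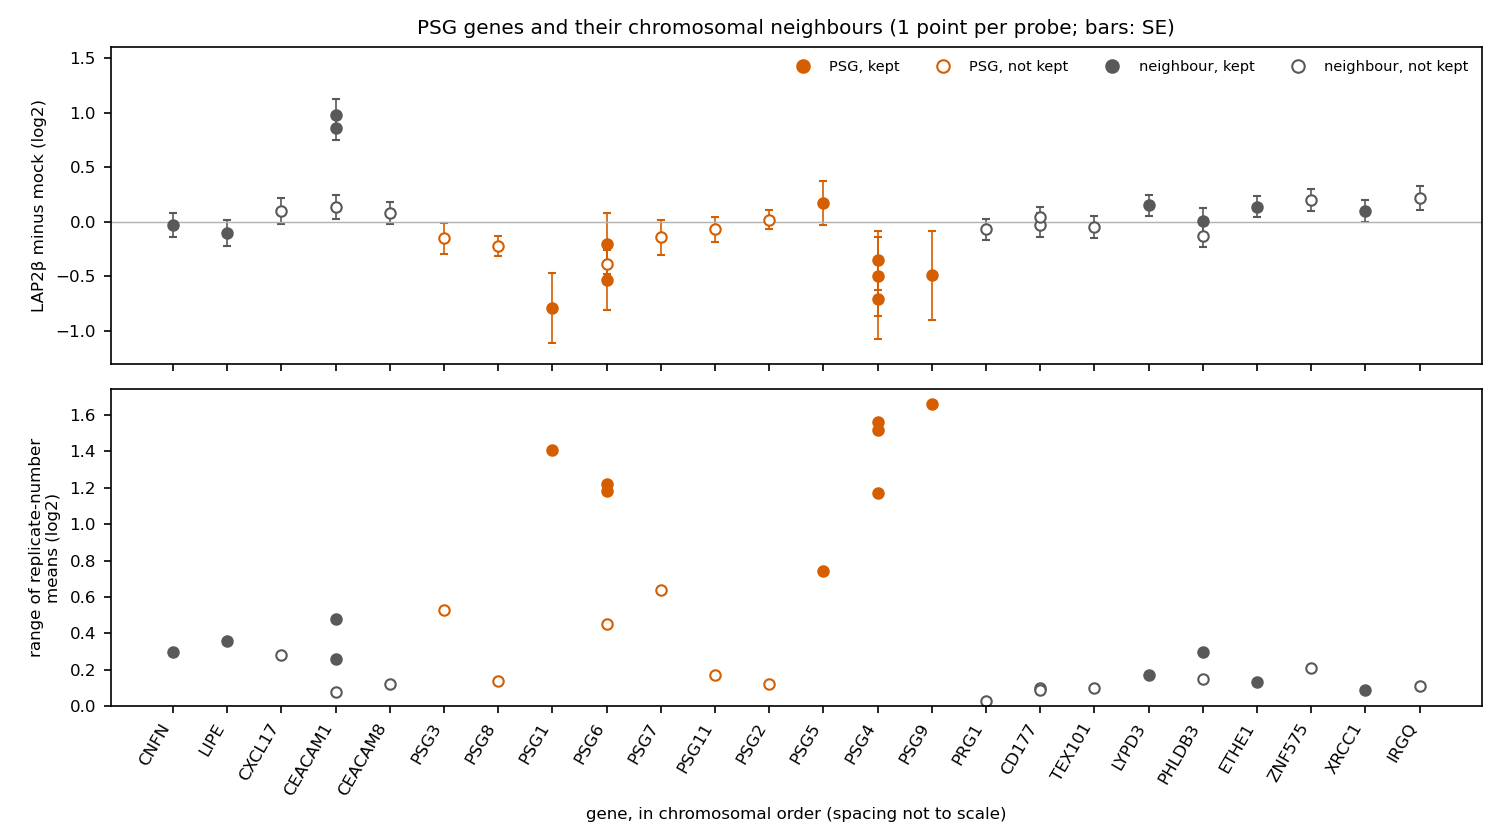
PSG genes (orange) and their measured neighbours (grey) in chromosomal order on the x axis, spacing not to scale, with 1 point per probe and open points for probes that were not kept. The upper panel gives the log2 difference, LAP2beta minus mock, with its SE from the fit of all probes without a filter, and the lower panel the range of the replicate-number means in log2 units, which is 0.74 or more for the kept PSG probes and at most 0.48 for the neighbours.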

How the data were processed

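Bead chip signals of 6 SNU638 samples were used. The authors scanned the arrays and processed them with BeadStudio. They deposited a table of linear intensity values before normalization with detection p-values, a quantile-normalized intensity table and a series matrix with the same normalized values. Whether background was subtracted is not given in the sources used here. No sample's labels matched 2 detection columns, which were not used. They stood beside the signals of mock replicate 3 under another mock number, and whether they belong to it is not known here. Each signal of mock replicate 3 was therefore ranked within its array and given the median detection p-value that probes of equal rank had on the other 5 arrays.

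The intensities before normalization, as deposited, underwent quantile normalization and log2 transformation in R 4.3.3. A detection p-value under 0.01 was required on 3 or more arrays. Models were fitted with limma 3.58.1 (lmFit and eBayes), with Benjamini-Hochberg adjustment over the 13323 kept probes. The steps were tested on simulated data. Probes were named from the platform annotation (27988 of 29377 with 1 symbol), and 27819 had a gene ID found in a GRCh38.p14 gene table, which gave the current symbol. For context genes with several kept probes the brightest was taken. For a probe below background on a whole group, the fold is a lower bound, set against the lowest signal above background on those arrays, or the probe's own signal where higher.

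The replicate numbers come from the sample titles. Same-numbered arrays deviated together from their group means (correlations of 0.544, 0.228 and 0.368 over the kept probes), and by the rule used here the numbers pair the samples.

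Named are all PSG probes, TMPO, the 5 genes nearest in profile, and from each context list the genes past the threshold, at most 4, or else the 2 with the largest difference. Members, lists and rules were chosen with earlier results of these data known. Alternatives were the authors' tables, neqc (offset 16), normexp (offset 50), median scaling, no normalization, other filters, eBayes options, stricter thresholds, the methods' t-test, the replicate block and each array left out. No slide block could be set, as slides and scan dates were not used here. The number of arrays limits the precision.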

Additional observations from a re-analysis of the deposited data

How the results depend on the processing

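The count of kept PSG probes called between the lines was 0, and 6 with the replicate number as a block. It stayed at 0 under the other 19 alternatives. The median difference of the kept PSG probes, -0.50, ran from -0.95 to -0.03 with 1 array left out, and was -0.03 without mock replicate 1 and -0.95 without LAP2beta replicate 1. The difference ran from -0.68 to 0.03 for PSG4 with ILMN_1693397, from -0.56 to 0.17 for PSG6 with ILMN_1718514 and from -1.07 to 0.01 for PSG9, each lowest without LAP2beta replicate 1 and above 0 only without mock replicate 1. For PSG5 it ran from -0.07 (without LAP2beta replicate 1) to 0.38 (without mock replicate 1), and was -0.06 without mock replicate 3. The median was -0.65 with median scaling and -0.67 without normalization, where that of all kept probes was -0.13 and -0.14, and -0.28 over all 14 probes with no filter.

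The count of kept PSG probes with a replicate number effect was 8 in the main setting and 8 with each array left out. It was 0 after neqc and 0 without the line in the fit, settings in which 0 of all kept probes passed, and 7 to 9 elsewhere. Why neqc ended these calls was not tested. Of the context genes, 5 passed between the lines, against 2 with detection on all 6 arrays, which leaves fewer genes tested, 3 at an adjusted p under 0.01, 0 by the methods' t-test after adjustment, and 2 to 5 with 1 array left out (2 without mock replicate 2, 3 without LAP2beta replicate 2). With the replicate block it was 7. Signals near background understate a fold, and detection on mock replicate 3 was estimated.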
